A study of Danio rerio with 6 samples.

Results

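The genes described here encode the enzymes that make and break down retinoic acid, namely *aldh1a2*, *cyp26a1*, *cyp26b1* and *cyp26c1*. They were selected by Ensembl identifier and chromosome, and all 4 were found among the 32266 genes listed. The RNAseq data came from *pax8*:DsRed-positive cells of 3 wild-type samples and 3 *dlx3b/4b* morphant samples. Embryos of both groups were heterozygous for the *pax8*:DsRed transgene, which marks early kidney tissue and the shared field of ear and epibranchial progenitors (otic-epibranchial progenitor domain, OEPD), and the cells were taken at late OEPD stages by fluorescence-activated cell sorting. Morphant embryos had been injected with antisense morpholino oligomers against *dlx3b* and *dlx4b*, which encode distal-less homeodomain transcription factors. Wild-type embryos are not described as having received a control injection, so that effects of Dlx3b/4b depletion and effects of injection cannot be told apart in these samples. The sorted population also joins ear and kidney progenitors, and it held RNA of blood and vascular genes. A lower level in bulk RNA can come from fewer cells of a type or from less RNA per cell, which cannot be told apart here.

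Retinoic acid is a small signalling molecule made from vitamin A. Retinol is first oxidized to retinal, and retinal is then oxidized to retinoic acid by retinaldehyde dehydrogenases, of which Aldh1a2 is the main one in the early vertebrate trunk. Cytochrome P450 enzymes of the Cyp26 family hydroxylate retinoic acid and thereby remove it. In zebrafish embryos *aldh1a2* is known from the mesoderm beside the hindbrain and trunk, whereas the *cyp26* genes are known from the anterior neural plate, the hindbrain and the tail bud. The opposed sites of synthesis and removal pattern the hindbrain and the tissues beside it, the otic placode included.

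Gene counts summed to 27373965 to 28480101 per wild-type sample and to 23846555 to 26250129 per morphant sample. Levels are given as CPM, counts rescaled to one common library total. By the sums above, without further scaling, 3 counts correspond to 0.105 to 0.126 CPM. Genes of the mitochondrial genome took 4.63% of the counts in wild-type replicate 2 and 2.02% to 3.09% in the other samples. The labelled tissue was checked with *pax8*, which had 227 to 304 CPM in wild-type and 265 to 415 CPM in morphant samples, and with *pax2a*, another OEPD and kidney gene, at 607 to 744 and 523 to 601 CPM. This check is not independent, because the cells were sorted on a *pax8* reporter and no unsorted sample is present. Genes of blood and vessels were abundant as well, with *tal1* at 670 to 974 and 578 to 662 CPM. *lmo2* had 1196 to 1480 CPM in wild-type and 981 to 1055 CPM in morphant samples. Of the genes of differentiating muscle, *myog* did not exceed 0.753 CPM in any sample, whereas the structural genes *tnnt3b* and *acta1a* had 11.2 to 22.8 and 6.80 to 14.7 CPM. Of 17526 tested genes, 850 (4.85%) were called higher and 1061 (6.05%) lower in morphant samples. Genes were called with edgeR's quasi-likelihood test, in which the replicate number entered as a block, where the Benjamini-Hochberg adjusted p was below 0.1. For 2649 genes (15.1%) every morphant sample lay above every wild-type sample, and for 2875 genes (16.4%) every morphant sample lay below.

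In the coordinates of the deposited table, *aldh1a2* (ENSDARG00000053493) lies on chromosome 7 at 30055034 to 30096500 on the reverse strand. It has 14 merged exons with 3734 bp in total. The gene *cyp26a1* (ENSDARG00000033999) lies on chromosome 12 at 8916918 to 8920510 on the reverse strand, with 7 merged exons and 1879 bp. Its nearest named neighbour is *EXOC6*, and *EXOC6B* is the nearest named neighbour upstream of *cyp26b1*. The gene *cyp26b1* (ENSDARG00000077121) lies on chromosome 7 at 25052585 to 25077440 on the forward strand, with 6 merged exons and 3876 bp. The gene *cyp26c1* (ENSDARG00000056029) lies on chromosome 17 at 19503020 to 19515492 on the reverse strand, with 7 merged exons and 4032 bp. Exons of *aldh1a2* and *cyp26a1* overlap no other listed gene. Of the exon bases of *cyp26b1*, 219 (5.65%) are shared with *si:ch73-156h21.1* on the opposite strand, which had 0 to 9 counts per sample. Of those of *cyp26c1*, 265 (6.57%) are shared with an unnamed gene on the opposite strand, which had 0 or 1 count. Whether counting used the strand is not stated, so that reads in these shared bases are uncertain.

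Expression of *aldh1a2*, the synthesis gene, was about 3 times higher in morphant samples. Raw counts were 1454, 796 and 1274 for wild-type replicates 1, 2 and 3, against 3520, 3190 and 3278 for the morphant replicates in the same order. After scaling, these were 51.8, 29.8 and 43.7 CPM in wild-type and 137, 120.2 and 138 CPM in morphant samples. The groups did not overlap, which held for 1 of the 4 enzymes against 31.5% of all tested genes in either direction, and the lowest morphant sample was 2.32 times the highest wild-type sample. Mean levels were 41.8 ± 11.2 CPM for wild type and 132 ± 10.3 CPM for morphants (SD, n = 3 each). This was a 3.23-fold rise, or 1.69 on the log2 scale, with a standard error of 0.132 and a 95% interval of 1.39 to 1.99 (adjusted p = 0.00095, edgeR with Benjamini-Hochberg adjustment). Without the block, where 6.20% of all tested genes were called higher and 13.7% in either direction, the estimate was 1.66 (adjusted p = 0.00208, edgeR). The ratio of same-numbered samples was 2.66, 4.04 and 3.17 for replicates 1, 2 and 3, the highest coming from the low wild-type replicate 2. Among the 4 enzymes, *aldh1a2* alone was called, against 4.85% of all tested genes called in this direction. Of all tested genes, 9 had an adjusted p no larger than that of *aldh1a2*, with *aldh1a2* itself and ties counted. In 57 of the 850 genes called higher, *aldh1a2* included, the fold change was at least as large as that of *aldh1a2*. Of these 850, 759 had a mean count above 100, and among the 759 this held for 11.

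**Figure D1:**
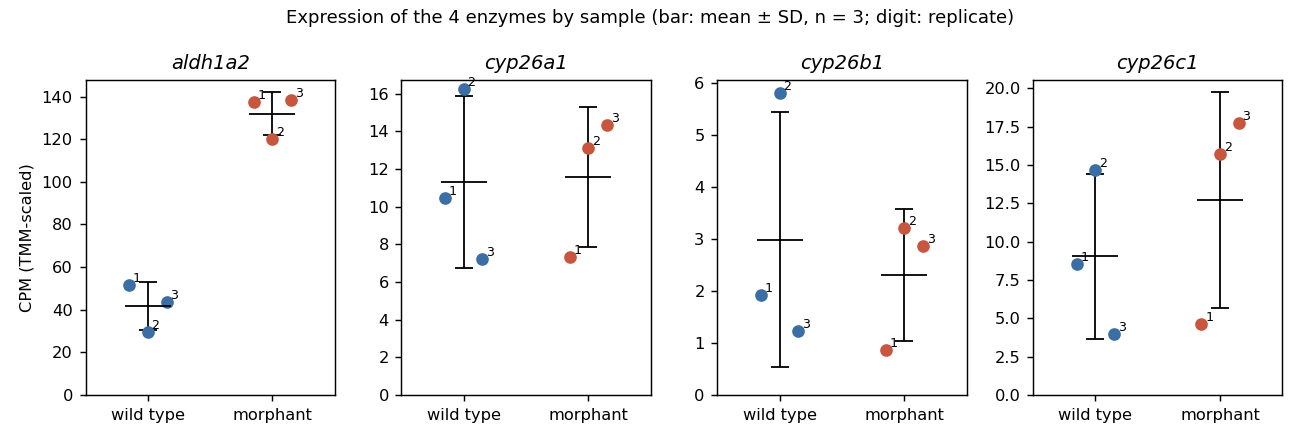
CPM of *aldh1a2*, *cyp26a1*, *cyp26b1* and *cyp26c1* in 3 wild-type (blue) and 3 morphant (red) samples, each axis starting at 0; points are samples with their replicate number, and bars give the mean ± SD. Only *aldh1a2* shows groups that do not overlap, at 29.8 to 51.8 CPM in wild-type and 120.2 to 138 CPM in morphant samples.

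The removal genes did not pass the test in either direction. *cyp26a1*, the family member known to be induced by retinoic acid itself, was counted 294, 435 and 210 times in replicates 1, 2 and 3 of the wild type and 188, 348 and 339 times in those of the morphants. This corresponds to 10.5, 16.3 and 7.21 CPM in wild-type and 7.34, 13.1 and 14.3 CPM in morphant samples, and the ranges overlapped almost fully. Means were 11.3 ± 4.59 and 11.6 ± 3.73 CPM (SD, n = 3 each). On the log2 scale the difference was 0.05 with a standard error of 0.280 and a 95% interval of −0.58 to 0.68 (adjusted p = 0.937, edgeR). This interval allows anything from 0.667-fold to 1.603-fold and lies below the whole interval of *aldh1a2*.

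*cyp26c1*, known from the anterior hindbrain, was counted 239, 393 and 115 times in the wild-type replicates and 119, 418 and 420 times in the morphant replicates. These were 8.51, 14.7 and 3.95 CPM in wild-type and 4.65, 15.7 and 17.7 CPM in morphant samples, so that morphant replicate 1 lay among the lower wild-type values and the other two above all of them. The difference was 0.44 on the log2 scale with a standard error of 0.471 and a 95% interval of −0.62 to 1.51 (adjusted p = 0.627, edgeR). The interval is wide, from 0.649-fold to 2.84-fold, and its upper part overlaps that of *aldh1a2*.

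*cyp26b1* was the least abundant member, with raw counts of 54, 155 and 36 in the wild-type replicates and of 22, 85 and 68 in the morphant replicates. The scaled values were 1.92, 5.79 and 1.24 CPM in wild-type and 0.859, 3.20 and 2.87 CPM in morphant samples. Wild-type replicate 2 was the highest and morphant replicate 1 the lowest, and the groups overlapped. Its difference was −0.28 on the log2 scale with a standard error of 0.466 and a 95% interval of −1.33 to 0.77 (adjusted p = 0.770, edgeR). A change below 0.396-fold or above 1.71-fold is outside this interval.

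The spread within each group was smaller for the synthesis gene than for each removal gene. Mean counts differed too, at 2252 for *aldh1a2* and 302, 284 and 70.0 for *cyp26a1*, *cyp26c1* and *cyp26b1*. The highest morphant value of *aldh1a2* was 1.15 times the lowest, whereas this ratio was 1.95 for *cyp26a1*, 3.82 for *cyp26c1* and 3.73 for *cyp26b1*. In wild-type samples the ratios were 1.74, 2.26, 3.72 and 4.69 in the same order. All 3 *cyp26* genes had the same order of wild-type samples, with replicate 2 highest and replicate 3 lowest. In morphant samples all 3 were lowest in replicate 1. Among wild-type samples *aldh1a2* had another order, because replicate 2 was its lowest sample.

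The direction of each *cyp26* gene changed when samples were left out, for *cyp26c1* only without replicate 3. Both samples of a replicate number were left out with the block kept, or a single sample was left out in a fit without the block. In these fits the log2 fold change of *cyp26a1* ranged from −0.38 without replicate 3 to 0.40 without wild-type replicate 2. That of *cyp26b1* ranged from −0.96 without replicate 3 to 0.55 without wild-type replicate 2, and that of *cyp26c1* from −0.33 without replicate 3 to 1.102 without replicate 1. None of these passed the threshold (adjusted p of 0.107 to 0.987 over these fits, edgeR). For *aldh1a2* the same fits gave 1.47 without wild-type replicate 2 to 1.85 without wild-type replicate 1, with an adjusted p of at most 0.0115.

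**Figure D2:**
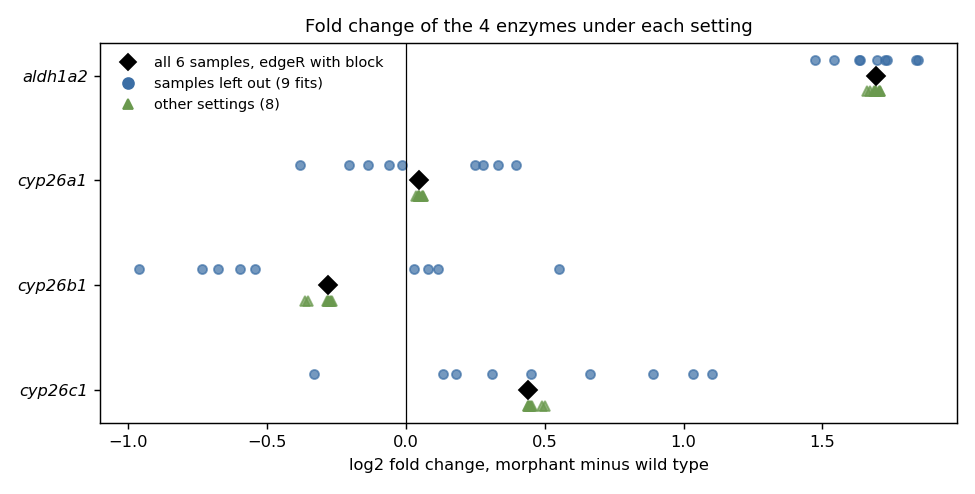
Log2 fold change (morphant minus wild type) of the 4 enzymes with all 6 samples (black diamonds), in 9 fits that left out a replicate number or, without the block, a single sample (blue circles) and in 8 other settings (green triangles). *aldh1a2* stayed between 1.47 and 1.85, whereas each *cyp26* gene had values on both sides of 0 when samples were left out.

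Levels of different genes were compared as RPKM, the CPM divided by the merged exon length in kilobases, which also depends on how much untranslated sequence is annotated. In wild-type samples *aldh1a2* had a mean level of 11.2 ± 2.99 RPKM, *cyp26a1* 6.02 ± 2.44, *cyp26c1* 2.24 ± 1.34 and *cyp26b1* 0.770 ± 0.634 RPKM (SD, n = 3 each). These levels were higher than those of 69.2%, 56.9%, 38.2% and 21.3% of the tested genes, respectively. The levels of *aldh1a2* and *cyp26a1* overlapped in wild-type samples, because replicate 2 had 7.97 RPKM of *aldh1a2* and 8.65 RPKM of *cyp26a1*. Wild-type levels of *cyp26a1* (3.84 to 8.65 RPKM) lay above those of *cyp26c1* (0.979 to 3.64 RPKM), whereas those of *cyp26c1* and *cyp26b1* (0.319 to 1.49 RPKM) overlapped. In morphant samples *aldh1a2* had 35.4 ± 2.75 RPKM, above 87.7% of the tested genes, and stood clear of *cyp26a1* at 6.17 ± 1.98 RPKM. Within each of the 6 samples the order was *cyp26a1*, *cyp26c1*, *cyp26b1*.

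Of the summed *cyp26* level, *cyp26a1* made up 62.7% to 74.7% in wild-type and 59.6% to 74.0% in morphant samples. *cyp26c1* held 19.1% to 26.4% in wild-type samples. In morphant replicates 1, 2 and 3 it held 21.8%, 33.4% and 34.5%, so that replicates 2 and 3 were above all wild-type samples and replicate 1 was not. The level of *aldh1a2* divided by the summed *cyp26* level was 1.69, 0.578 and 2.28 for the wild type and 6.97, 2.75 and 2.91 for the morphants, in replicate order. Every morphant ratio was above every wild-type ratio, and morphant replicate 1 stood apart because its *cyp26* level was low while its *aldh1a2* level was like that of the other morphant samples. This ratio compares RNA levels in a mixed population and was not tested, since it is built from the genes described.

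**Figure D3:**
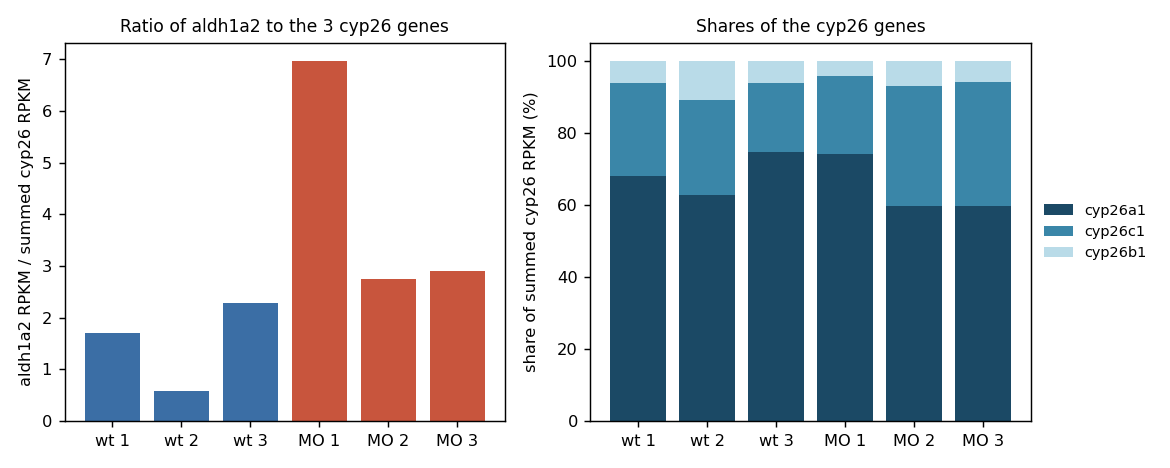
Left, RPKM of *aldh1a2* divided by the summed RPKM of the 3 *cyp26* genes in each wild-type (wt, blue) and morphant (MO, red) sample. Right, percentage share of each *cyp26* gene in their sum; *cyp26a1* held 59.6% or more in every sample.

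The retinoic acid genes were set beside marker genes of tissues that the sort could hold. The calls in each list stand beside 4.85% of all tested genes called higher and 6.05% called lower. Of 19 tested paraxial mesoderm markers, the tissue class best known for *aldh1a2*, 1 was called higher and 2 lower, with a median log2 fold change of 0.09 against −0.01 over all tested genes. Their summed level was 224 to 252 RPKM in wild-type and 229 to 244 RPKM in morphant samples, so that the morphant sums lay within the wild-type range. The sum joins opposed changes and cannot show an unchanged content of this tissue. Mean levels went from 21.9 to 32.8 RPKM for *tbx16* and from 49.8 to 39.2 RPKM for *dlc*. Called members were *tbx16*, higher at 0.58, and *dlc* and *ripply2*, lower at −0.34 and −0.72 on the log2 scale. Their adjusted p was 0.074, 0.064 and 0.085 in this order (edgeR). At a threshold of 0.05, without replicate 1 or without replicate 2, 0 of the 19 were called. *tbx6* and *meox1*, further markers of presomitic and somitic mesoderm, had log2 fold changes of 0.32 and 0.10 and did not pass (adjusted p = 0.582 and 0.643, edgeR). Other uncalled members lay on both sides of 0, from −0.41 for *foxc1a* to 0.54 for *mespab*, with *msgn1* at −0.18. Of 9 intermediate mesoderm and kidney markers, 2 were called higher and 1 lower, at a median of 0.22, and the summed level was 471 to 523 RPKM in wild-type and 499 to 618 RPKM in morphant samples. These were the transcription factor genes *osr1* and *sim1a* at 0.76 and 0.46 and the kidney cadherin gene *cdh17* at −1.14 on the log2 scale. Blood and vascular markers had 1 of 7 called higher and 3 lower, at a median of −0.41, with summed levels of 1226 to 1606 RPKM in wild-type and 1077 to 1170 RPKM in morphant samples. The vascular gene *fli1a* was higher at 0.45, and *gata1a*, *spi1b* and *lmo2*, transcriptional regulators of blood cells, were lower at −1.09, −1.44 and −0.41. The uncalled members *kdrl*, *tal1* and *drl* were at −0.47, −0.38 and −0.09. Of 17 alternative settings, the calls of *fli1a* and *lmo2* were each lost in 6, that of *spi1b* in 4 and that of *gata1a* in 0. Of 14 tested OEPD markers, 2 were called lower and 0 higher, at a median of −0.35 and summed levels of 412 to 764 and 418 to 559 RPKM. The OEPD and kidney lists share *pax2a* and *pax8*, with wild-type means of 161 and 109 RPKM. Their sums and medians are therefore not separate measures of ear and kidney cells. The called OEPD markers were *sox9b* at −2.11 and *tfap2a* at −0.76, both transcription factor genes. The OEPD list depended on the samples used, with 0 called without replicate 1, 2 higher and 2 lower without replicate 2 and 9 lower at a median of −0.85 without replicate 3. *atoh1b* was at 0 in all samples and lies on an unplaced scaffold. The paper states that reads were mapped to known chromosomes only, so that this 0 does not show absent RNA. Muscle differentiation markers had 0 of 5 called, with summed levels of 13.6 to 15.2 and 12.4 to 21.0 RPKM. The part of these tissues in the rise of *aldh1a2* was not tested beyond these values.

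Several marker lists held genes with the sample order of the *cyp26* genes, in which wild-type replicate 2 was highest, wild-type replicate 3 lowest and morphant replicate 1 lowest of its group. This order was found in 9.80% of all tested genes, in 7 of 14 OEPD markers, 4 of 7 forebrain markers, 3 of 8 hindbrain markers and 2 of 19 paraxial mesoderm markers, and in 0 of the tested muscle, kidney and blood markers. Among the OEPD genes were *foxi1* and the morpholino targets *dlx3b* and *dlx4b*. *dlx4b*, whose RNA a morpholino need not remove, had 6.16, 25.2 and 3.84 CPM in wild-type and 4.26, 8.475 and 23.9 CPM in morphant samples. None of the 7 tested forebrain markers was called, beside 10.9% of all tested genes called in either direction. The summed level of the forebrain list was 12.5, 21.14 and 9.15 RPKM for the wild type and 5.45, 18.75 and 26.3 RPKM for the morphants, in replicate order. It was thus highest in wild-type replicate 2 and lowest in replicate 3 among wild-type samples, and lowest in morphant replicate 1, as for each *cyp26* gene. The 4 forebrain markers with this order were *six3a*, *six3b*, *rx3* and *fezf2*. *otx2b*, a transcription factor of the forebrain and midbrain, had 2.42, 9.53 and 2.85 CPM in wild-type and 2.19, 9.98 and 11.5 CPM in morphant samples. *otx2b* did not have the order of the *cyp26* genes, because its lowest wild-type sample was replicate 1. Of 8 tested hindbrain markers, 1 was called lower and 0 higher, with summed levels of 92.5 to 147 and 100.5 to 110 RPKM. The called gene was *irx1b*, at −1.19 (adjusted p = 0.0509, edgeR). It had 38.5, 103.7 and 30.4 CPM in wild-type and 14.5, 25.6 and 27.8 CPM in morphant samples. Its call was lost in 9 of 17 alternative settings, among them DESeq2 with or without the block and either fit without wild-type replicate 2. The part of neural or OEPD cells in the spread of the *cyp26* genes was not tested.

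**Figure D4:**
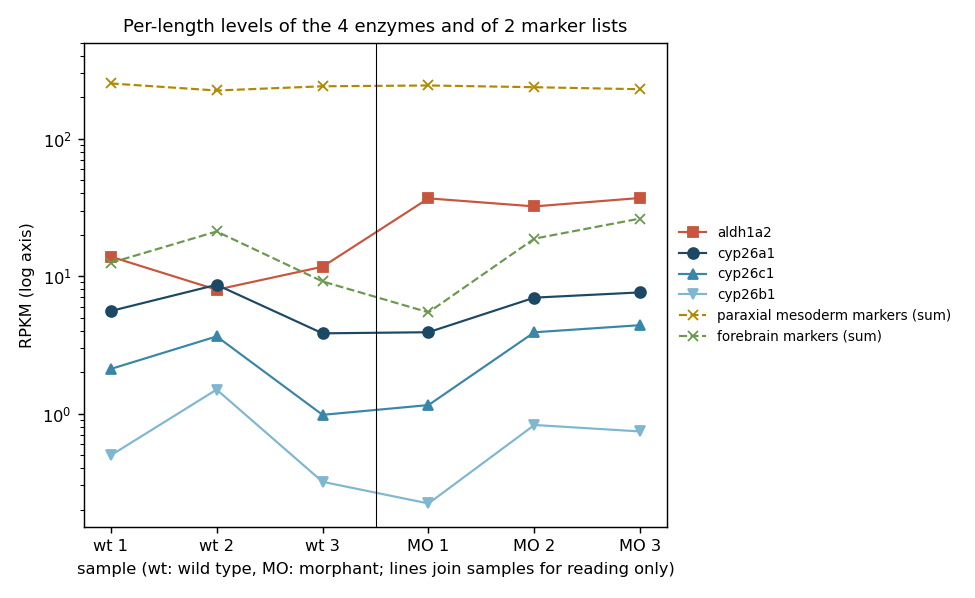
RPKM on a log axis of the 4 enzymes (solid lines) and the summed RPKM of paraxial mesoderm and forebrain markers (dashed lines) in each wild-type (wt) and morphant (MO) sample. The *cyp26* genes and the forebrain sum are all lowest in replicate 3 among wild-type and in replicate 1 among morphant samples, while the paraxial mesoderm sum stays between 224 and 252 RPKM. The paraxial mesoderm sum joins genes that changed in opposed directions.

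For each enzyme, the genes with the most similar profile were listed by Pearson's r of log2 CPM over the 6 samples, among 11392 genes with a mean count above 100 (11393 for *cyp26b1*, which is itself below that count). With so few samples in 2 groups, high values are found by search and describe shape, not size. Nearest to *aldh1a2* were *zgc:55558*, *elf1* and *WAC* (r = 0.996, 0.996 and 0.995). Their log2 fold changes were only 0.26, 0.42 and 0.17, and *elf1* alone was called (adjusted p = 0.0494, edgeR). Nearest to *cyp26a1* was *otx2a*, a further *otx2* gene (r = 0.997), with 3.67, 9.01 and 1.89 CPM in wild-type and 2.15, 6.06 and 6.54 CPM in morphant samples, followed by *PLEKHA5* and *AUTS2* (r = 0.990 and 0.986). Nearest to *cyp26b1* were *unc119a2*, *CCN2* and *MAGI3* (r = 0.990, 0.978 and 0.977), and nearest to *cyp26c1* were *COL2A1*, *CHST2* and *ATG3* (r = 0.990, 0.986 and 0.980). None of the genes nearest to a *cyp26* gene was called, which largely follows from choosing them by likeness to genes that were not called.

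The genes that supply, store and carry retinoids were followed next. Of 24 listed, 21 were matched and 15 tested. Of these 15, 2 were called higher and 2 lower, beside 4.85% and 6.05% of all tested genes. The median log2 fold change was 0.04, against −0.01 over all tested genes. The 6 matched genes below the filter on low counts were *rbp2a*, *rbp4*, *rbp7a*, *rbp7b*, *crabp1a* and *bco1l*. *rdh10a*, which encodes a retinol dehydrogenase that makes retinal, had 50.2, 52.7 and 54.1 CPM in wild-type and 86.3, 83.1 and 80.6 CPM in morphant samples. The groups did not overlap, and the rise was 1.59-fold, or 0.67 on the log2 scale with a standard error of 0.105 (adjusted p = 0.011, edgeR). Its paralog *rdh10b* had 50.9 to 57.6 CPM in wild-type and 43.7 to 48.7 CPM in morphant samples. For *rdh10b* the groups did not overlap either, but in the opposite direction. It did not pass the test, at a log2 fold change of −0.28 (95% interval −0.53 to −0.03, adjusted p = 0.178, edgeR).

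Genes acting on retinol and retinal in other ways showed no common direction. *lratb.1*, which encodes an acyltransferase that stores retinol as esters, was called higher, with a log2 fold change of 0.51 (standard error 0.136, adjusted p = 0.0642, edgeR). *rbp5*, a cellular retinol-binding protein gene, fell from 45.4 to 56.9 CPM in wild-type to 32.6 to 35.0 CPM in morphant samples, a log2 fold change of −0.57 (standard error 0.124, adjusted p = 0.034, edgeR). *dhrs9*, a short-chain dehydrogenase gene, was called lower at −1.03 (adjusted p = 0.0519, edgeR) although its groups overlapped, at 3.12 to 7.66 CPM in wild-type and 1.27 to 4.14 CPM in morphant samples. Without the block *dhrs9* and *lratb.1* were not called (adjusted p = 0.1996 and 0.125, edgeR). *dhrs3a*, which encodes a reductase that turns retinal back into retinol and responds to retinoic acid, had 66.3, 58.2 and 56.2 CPM in wild-type and 65.5, 53.9 and 58.1 CPM in morphant samples. Its change of −0.03 on the log2 scale did not pass (95% interval −0.27 to 0.21, adjusted p = 0.909, edgeR). *aldh1a3*, another retinaldehyde dehydrogenase gene, was near the detection floor, with 0.321 to 0.710 CPM in wild-type and 0.422 to 0.527 CPM in morphant samples. *crabp2a*, a cellular retinoic acid-binding protein gene, had 10.7, 18.6 and 10.2 CPM in wild-type and 8.87, 26.03 and 26.4 CPM in morphant samples. It did not pass (adjusted p = 0.274, edgeR), and as for the *cyp26* genes its lowest morphant sample was replicate 1.

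**Figure D5:**
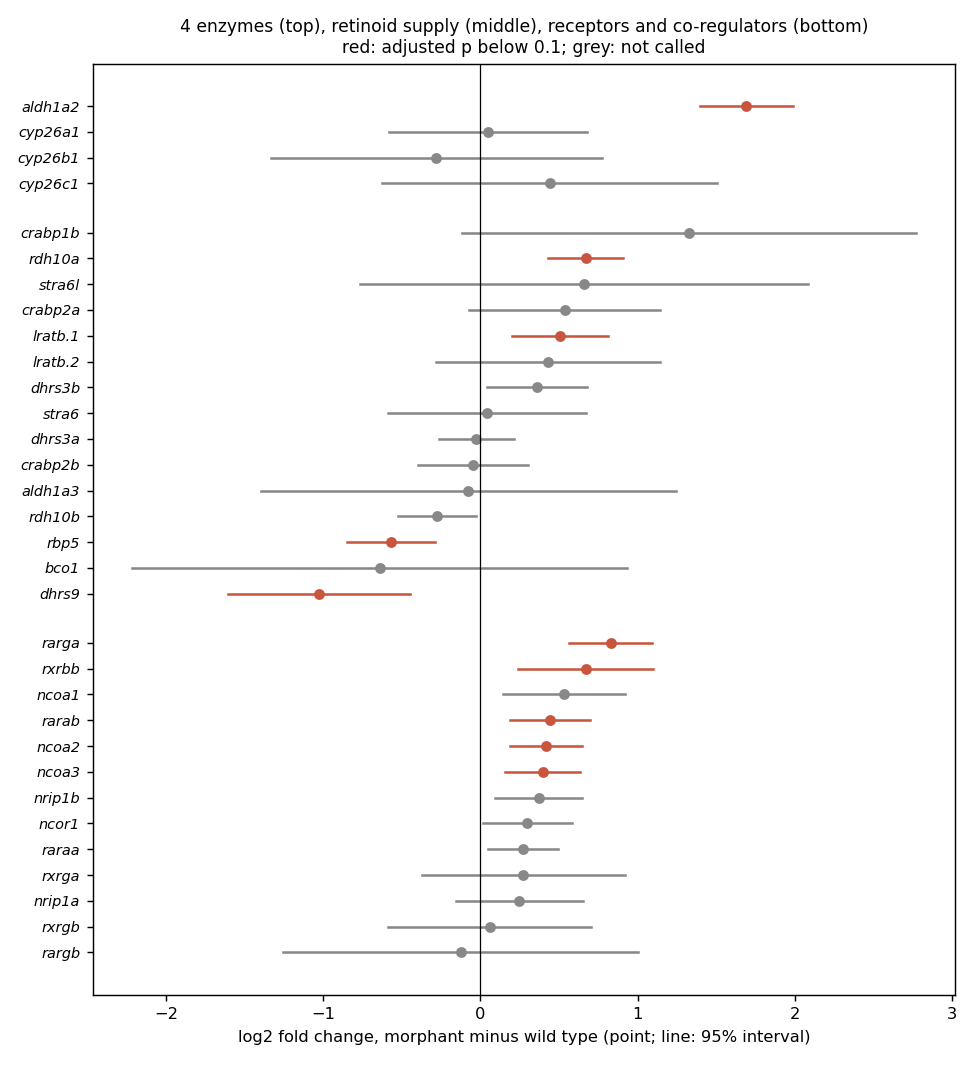
Log2 fold change (morphant minus wild type, edgeR) with its 95% interval for the 4 enzymes, 15 tested retinoid supply genes and 13 receptor and co-regulator genes; red marks an adjusted p below 0.1. Of the called genes, *aldh1a2* lies at 1.69 and *rdh10a* at 0.67, while the uncalled *crabp1b* lies at 1.33 (95% interval −0.12 to 2.77). The *cyp26* intervals span 0, and all 5 called receptor and co-regulator genes are higher in morphant samples.

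Of 16 listed retinoic acid receptors, retinoid X receptors and co-regulators, 13 were matched and tested, 5 were called higher and 0 lower, against 4.85% and 6.05% of all tested genes. The median log2 fold change was 0.37. Every morphant sample was above every wild-type sample for 9 of them, against 15.1% of all tested genes. *rarga*, a retinoic acid receptor gene, had 61.3, 57.3 and 66.1 CPM in wild-type and 119.9, 110.4 and 98.2 CPM in morphant samples. This was a rise of 0.83 on the log2 scale with a standard error of 0.116 (adjusted p = 0.008, edgeR), the highest of the list. *rarab*, the receptor gene with the highest CPM of the list's receptors, had 122 to 167 CPM in wild-type and 189 to 231 CPM in morphant samples, with a log2 fold change of 0.44 (adjusted p = 0.0567, edgeR). *raraa* did not pass, at 0.27 (adjusted p = 0.143, edgeR). *rxrbb*, a retinoid X receptor gene whose product pairs with these receptors, was called higher at 0.67 (adjusted p = 0.0784, edgeR). The remaining called genes were the co-activator genes *ncoa2* and *ncoa3* at 0.42 and 0.40.

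Genes that are known to respond to retinoic acid were listed as well. Of 19 listed, 17 were matched and tested, and their median log2 fold change was 0.04. Of these 17, 2 were called higher and 0 lower, beside 4.85% and 6.05% of all tested genes (10.9% in either direction). The called genes were *rarab*, given above, and *cdx4*, a caudal-type homeobox gene of the posterior body. *cdx4* had 155, 134 and 134 CPM in wild-type and 305, 262 and 273 CPM in morphant samples, a log2 fold change of 0.99 (standard error 0.0928, adjusted p = 0.00197, edgeR). Of its hox genes, *hoxb1b* had 81.0 to 108 CPM in wild-type and 92.4 to 109 CPM in morphant samples (log2 fold change 0.04, 95% interval −0.22 to 0.31, adjusted p = 0.869, edgeR). *hoxb5a*, expressed further posterior, was at −0.24 (adjusted p = 0.237, edgeR), and *hoxb5b* at 0.27 (adjusted p = 0.196, edgeR).

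Calls among the pathway genes moved with the number of calls over all genes when samples were left out. Without replicate 1, 0 of the 15 supply genes and 0 of the 13 receptor and co-regulator genes were called, as 185 genes were called in all instead of 1911. In that fit *rdh10a* was at 0.62 (adjusted p = 0.2001, edgeR) and *rarga* at 0.76 (adjusted p = 0.134, edgeR), close to the values with all samples, whereas *aldh1a2* and *cdx4* were still called. Without replicate 2, 1 supply gene and 2 receptor and co-regulator genes were called among 1009 in all, and without replicate 3 these numbers were 4 and 9 among 3955. In fits without the block that left out a single sample, 2 to 6 of the receptor and co-regulator genes were called among 932 to 2407 in all.

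Stress genes that are known to respond to morpholino injection itself differed between the groups as well. Beside 4.85% and 6.05% of all tested genes, 4 of the 5 tested were called higher and 1 lower. Their median log2 fold change was 1.35. Their summed level was 162 to 191 RPKM in wild-type and 338 to 549.6 RPKM in morphant samples. *ccng1*, the cyclin G1 gene, had 326, 369 and 391 CPM in wild-type and 735, 914 and 1181 CPM in morphant samples, and *mdm2*, a ubiquitin ligase gene, had a log2 fold change of 1.35 (adjusted p = 0.00218, edgeR). *cdkn1a*, which encodes a cell cycle inhibitor, and *bbc3*, which encodes a cell death factor, were higher at 1.41 and 1.099, and *sesn1* was lower at −0.52. The groups overlapped for *bbc3*, and without the block it was not called (adjusted p = 0.108, edgeR), which left 3 higher. In morphant replicates 1, 2 and 3 the summed level of the stress genes was 338, 427 and 549.6 RPKM. In the same order *aldh1a2* had 137, 120.2 and 138 CPM, and both lay above all wild-type samples. The part of this response in the rise of *aldh1a2*, *rdh10a* and the receptor genes was not tested.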

How the data were processed

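The authors deposited raw read counts per Ensembl gene in a featureCounts layout, without normalization, for 32266 genes and 92 spike-in features that had 0 counts in all samples. The submitters' processing notes name bcl2fastq 2.17.1.14, featureCounts 1.5.2 and GRCz10, the build taken here for coordinates, whereas the paper's methods name GSNAP, GRCz11 and another library kit. The deposited merged exon length served for RPKM. The strand setting is not given in the sources used here.

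Groups and replicate numbers came from the sample titles. The paper describes 3 biological replicates per condition. Counts were filtered with filterByExpr, normalized by TMM and tested with the quasi-likelihood test of edgeR 4.0.16 (R 4.3.3) with the replicate number as a block, after the multi-factor design named in the methods for a clutch effect. In the main fit p-values were adjusted over 17526 genes at a threshold of 0.1. In each alternative fit they were adjusted over the genes tested there. CPM and RPKM used TMM-scaled totals, and log2 CPM a prior count of 2. Standard errors are the log2 fold change divided by the square root of F. The level that 3 counts correspond to covers counting error only. The code was tested on simulated counts.

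Alternatives were no block, DESeq2 1.42.0 with and without block, RLE, no filter, at least 10 counts in every sample, a threshold of 0.05 and leaving out samples. Unscaled library totals were added after seeing the data.

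Members and gene lists were chosen with earlier results of these data known. Of 144 listed symbols, 125 were matched, 79 by symbol and 46 through a shared human-type symbol told apart by the chromosome of the zebrafish gene in RefSeq (GRCz12tu). Some genes of these lists are not reported here and were left out of the lists' counts and sums. Named are the 4 enzymes, the called list genes (up to 6 per list), the retinoid genes with the highest RPKM and the 3 genes nearest in profile. Further list genes (*rdh10b*, *aldh1a3*, *crabp1b*, *crabp2a*, *tbx6*, *meox1*, *foxc1a*, *mespab*, *msgn1*, *kdrl*, *tal1*, *drl*, *otx2b*, *six3a*, *six3b*, *rx3*, *fezf2*, *foxi1*, *dlx3b*, *dlx4b*, *hoxb1b*, *hoxb5a*, *hoxb5b* and the tissue checks) were chosen after their values were seen. Figures used matplotlib 3.10.9.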

Additional observations from a re-analysis of the deposited data

How the results depend on the processing

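The call of *aldh1a2* and its direction held in all 17 settings tried (log2 fold change 1.47 to 1.85, adjusted p of at most 0.0115). No *cyp26* gene was called in any of them. When samples were left out, log2 fold changes ranged from −0.38 to 0.40 for *cyp26a1*, −0.96 to 0.55 for *cyp26b1*, −0.33 to 1.102 for *cyp26c1* and −0.10 to 0.051 for *dhrs3a*, and the other 8 settings kept the sign of each. The 1911 called genes became 185 without replicate 1 and 3955 without replicate 3, with 62 to 2156 higher and 123 to 1799 lower. They were 3074 (1512 higher) with DESeq2 and no block, and 997 (416 higher, 581 lower) at a threshold of 0.05. Without a filter 1331 genes were called higher. The cause was not tested. Without the replicate block 2405 genes were called. Deviations from the group mean of same-numbered samples correlated at r = 0.156, 0.055 and −0.143 across genes. For differently numbered samples r ran from −0.241 to 0.222. The highest r of all was that of wild-type replicate 2 with morphant replicate 3. With 3 samples per group, this did not show that the numbers pair the samples and cannot exclude it. No common scaling moved the median of all genes by more than 0.02 from 0. The standard error was 0.466 for *cyp26b1* at a mean of 70.0 counts and 0.471 for *cyp26c1* at 284.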
